A study of Mus musculus with 6 samples.

Results

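Alpk2, Far2 and Tmem255a are 3 of the 43346 gene models in the count table, chosen by their lower counts in the knockout cerebellum and because none of them is a standard marker of a cerebellar cell type. Each symbol occurs once in the table, and all 3 models were among the 16934 genes with enough counts to be tested. The cerebella came from mice 15 months old. The tested mice were homozygous for a Tmem106b knockout allele (Tmem106b-/-, KO, 1 female and 2 males), and they were set against Tmem106b+/+ mice (WT, 1 female and 2 males). Tmem106b encodes a transmembrane protein of the lysosome and its precursors, and the study's title concerns the death of Purkinje cells, the large inhibitory output neurons of the cerebellar cortex, after its loss. The labels do not say how the allele was made, whether the mice were littermates or which pieces of cerebellum were taken.

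ALPK2 is an alpha kinase, a member of a small family of atypical protein kinases that share no clear sequence likeness with the classical ones, and in zebrafish it acts in heart development. FAR2 is a fatty acyl-CoA reductase, an enzyme that turns activated fatty acids into fatty alcohols, the building blocks of waxes and of ether lipids such as the plasmalogens that are plentiful in brain membranes. TMEM255A is a protein predicted to cross the membrane several times, and little is known of what it does.

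The libraries held 25245778 to 28584165 counts in KO and 29658618 to 31135185 in WT. Tmem106b itself stood at 27.2% of the WT level in KO (66.8 ± 3.64 CPM in KO against 245 ± 19.4 CPM in WT, SD, n = 3 each; CPM are counts divided by the scaled library size and set to a common total). The female labels matched the counts of Xist, at 21505 in the KO female and 18345 in the WT female and at most 12 in the 4 males. WT replicate 1 lay apart on the first principal component (-40.1, against -10.8 to 22 in the other libraries) and KO replicate 1 on the second (38.5, against -14.4 to 5.98), and these are the 2 females.

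The upstream sequence of Far2 and of Tmem255a is shown first. RefSeq promoter windows (GRCm38.p6, 250 bases before to 50 after the gene start) were matched for these 2 members, and no window was at hand for Alpk2. Only the part before every annotated transcript start is printed, 5′ to 3′ on the strand of the gene, with motif matches in capitals. For Far2 this is chr6:148047166-148047258 on the plus strand, and for Tmem255a chrX:38252482-38252731 on the minus strand.
Far2: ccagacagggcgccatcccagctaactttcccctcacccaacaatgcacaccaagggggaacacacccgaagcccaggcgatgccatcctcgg
Tmem255a: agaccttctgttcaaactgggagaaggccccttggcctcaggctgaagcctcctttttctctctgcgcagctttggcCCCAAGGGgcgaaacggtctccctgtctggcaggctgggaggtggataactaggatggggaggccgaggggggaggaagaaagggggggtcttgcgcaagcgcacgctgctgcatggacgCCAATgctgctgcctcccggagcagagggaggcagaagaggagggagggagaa

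Both whole windows were rich in G and C, at 66% for Far2 and 64% for Tmem255a against a median of 52.7% over 27025 promoters. Far2 held 21 CpG dinucleotides and Tmem255a 11, against a median of 7. Both strands were searched for the GC box GGGCGG, for the letters CCAAT, for the TATA box in its form TATAAA, for CCCNNGGG, the core bound by EBF factors, and for the cyclic AMP response element TGACGTCA. The Far2 window held GGGCGG at -126 and -56 from the RefSeq start, a motif found in 35.9% of promoters, and both matches lie past the stretch printed above. The Tmem255a window held CCCNNGGG at -173, found in 13.4% of promoters, and CCAAT at -53, found in 37.9%. The 2 windows had no motif of this set in common, and a match is a run of letters and not a measured site.

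Alpk2 was the least abundant of the 3 genes and had the lowest fraction of its WT level in KO. Its model (ENSMUSG00000032845) lies on chromosome 18 at 65265529 to 65393888 of mm10, on the minus strand, with a length of 7782 bases. The counts were 148, 163 and 171 in KO replicates 1 to 3, against 475, 409 and 371 in WT replicates 1 to 3. Scaled to library size these were 5.82, 5.6 and 6.19 CPM in KO, against 15.8, 13.5 and 12.5 CPM in WT. The groups did not overlap, and the highest KO library stood at 49.5% of the lowest WT library. The mean was 5.87 ± 0.299 CPM in KO and 13.9 ± 1.69 CPM in WT (SD, n = 3 each), so the KO mean was 42.1% of the WT mean. The KO mice differed from each other by a coefficient of variation of 5.09%, where counting alone gives 7.89%, and the WT mice by 12.2%, where counting gives 4.89%.

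Far2 had the widest spread between mice relative to its difference. Its model (ENSMUSG00000030303) lies on chromosome 6 at 148047259 to 148182758, on the plus strand. Its counts were 760, 674 and 758 in KO, against 1458, 1119 and 1264 in WT. This came to 29.9, 23.1 and 27.4 CPM in KO, against 48.5, 36.9 and 42.6 CPM in WT. The groups did not overlap, but the highest KO library, the female, was at 81.1% of the lowest WT library, a male. The mean was 26.8 ± 3.42 CPM in KO and 42.7 ± 5.82 CPM in WT (SD, n = 3 each), and the KO mean was 62.9% of the WT mean. The coefficients of variation, 12.7% in KO and 13.6% in WT, compare with counting errors of 3.7% and 2.79%.

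Tmem255a was the most abundant. Its model (ENSMUSG00000036502) lies on chromosome X at 38196573 to 38252439, on the minus strand. Its counts were 1409, 1240 and 1278 in KO, against 2438, 2175 and 2182 in WT. In CPM these were 55.4, 42.6 and 46.2 in KO, against 81.1, 71.6 and 73.5 in WT. The groups did not overlap, the female was the highest of each genotype, and the highest KO library stood at 77.4% of the lowest WT library. The mean was 48.1 ± 6.62 CPM in KO and 75.4 ± 5.0 CPM in WT (SD, n = 3 each), and the KO mean was 63.8% of the WT mean, close to the fraction of Far2.

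**Figure D1:**
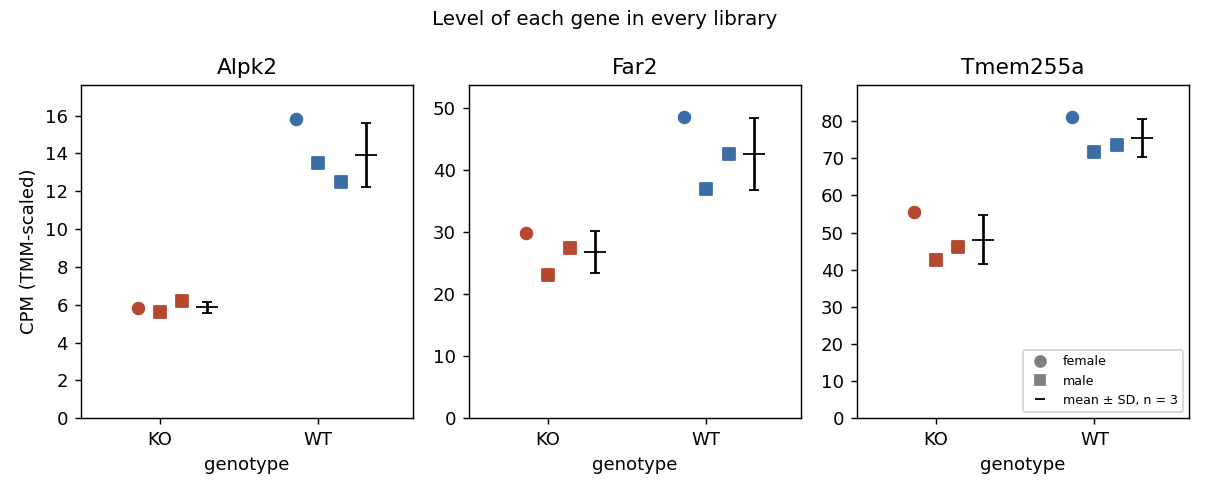
Level of Alpk2, Far2 and Tmem255a in CPM, scaled by TMM, in each KO and WT library. Circles are females, squares males, and the black bars the mean ± SD of 3 mice. In every panel the 3 KO mice lie below the 3 WT mice, with the wider gap for Alpk2 (49.5% between the closest libraries) than for Far2 (81.1%) or Tmem255a (77.4%).

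Levels of different genes can be compared only per length. Divided by the length of the gene model (RPKM, the CPM per kilobase), Alpk2 was at 0.754 ± 0.0384 in KO and 1.79 ± 0.218 in WT, Far2 at 5.11 ± 0.651 in KO and 8.12 ± 1.11 in WT, and Tmem255a at 10.7 ± 1.48 in KO and 16.8 ± 1.11 in WT (SD, n = 3 each). Over all 6 libraries this placed Alpk2 low among the genes tested (percentile 23.5), Far2 near the middle (53.9) and Tmem255a in the upper part (72.8). The order Tmem255a, Far2, Alpk2 was the same within each of the 6 libraries. The length of Far2 in the table, 5253 bases, is shorter than the 7313 exonic bases that GENCODE M21 gives this gene, so its RPKM depends on the gene model.

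In the fit over all genes, the log2 fold change of KO over WT was -1.24 (SE 0.13) for Alpk2, -0.67 (SE 0.10) for Far2 and -0.66 (SE 0.08) for Tmem255a. These values chose the 3 genes and so are a description. Adjusted by Benjamini-Hochberg, their p-values from the quasi-likelihood test of edgeR were 0.0134, 0.0474 and 0.0214, with a threshold of 0.05. Over all 16934 genes tested, 48 changed at this threshold, a background of 0.283%, with 25 lower (0.148%) and 23 higher (0.136%), and KO lay below WT without overlap in 6.35% of the genes. DESeq2 called 1.43% of the genes it tested and limma-voom 0.254%, and 8.96% had an unadjusted p under 0.05 in edgeR, 4.25% on the lower and 4.71% on the higher side. Among the 25 lower genes, ordered by the size of the fall, Alpk2 was the 4th, Far2 the 9th and Tmem255a the 10th. Far2 was near the limit: the next genes inside it included Dner (-0.44, SE 0.07, edgeR adjusted p = 0.0483), a Purkinje cell surface protein, and the first ones outside were Tnc (-1.36, SE 0.20), Kcnma1 (-0.53, SE 0.08) and Icmt (-0.75, SE 0.11), each at an edgeR adjusted p of 0.0504.

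The calls rest on few mice. Without WT replicate 2, without WT replicate 3 and without KO replicate 2, Far2 had edgeR adjusted p-values of 0.154, 0.331 and 0.235, and Tmem255a 0.154, 0.223 and 0.156. Alpk2 was at 0.134 without WT replicate 2 and 0.148 without WT replicate 3, and at 0.0412 without KO replicate 2. The fold changes themselves moved little, from -1.30 to -1.14 for Alpk2, -0.73 to -0.60 for Far2 and -0.72 to -0.60 for Tmem255a over the 6 fits with a library left out. The number of genes changed in either direction, 48 with all libraries, was 117, 16 and 156 without KO replicates 1 to 3 and 93, 1 and 1 without WT replicates 1 to 3.

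**Figure D2:**
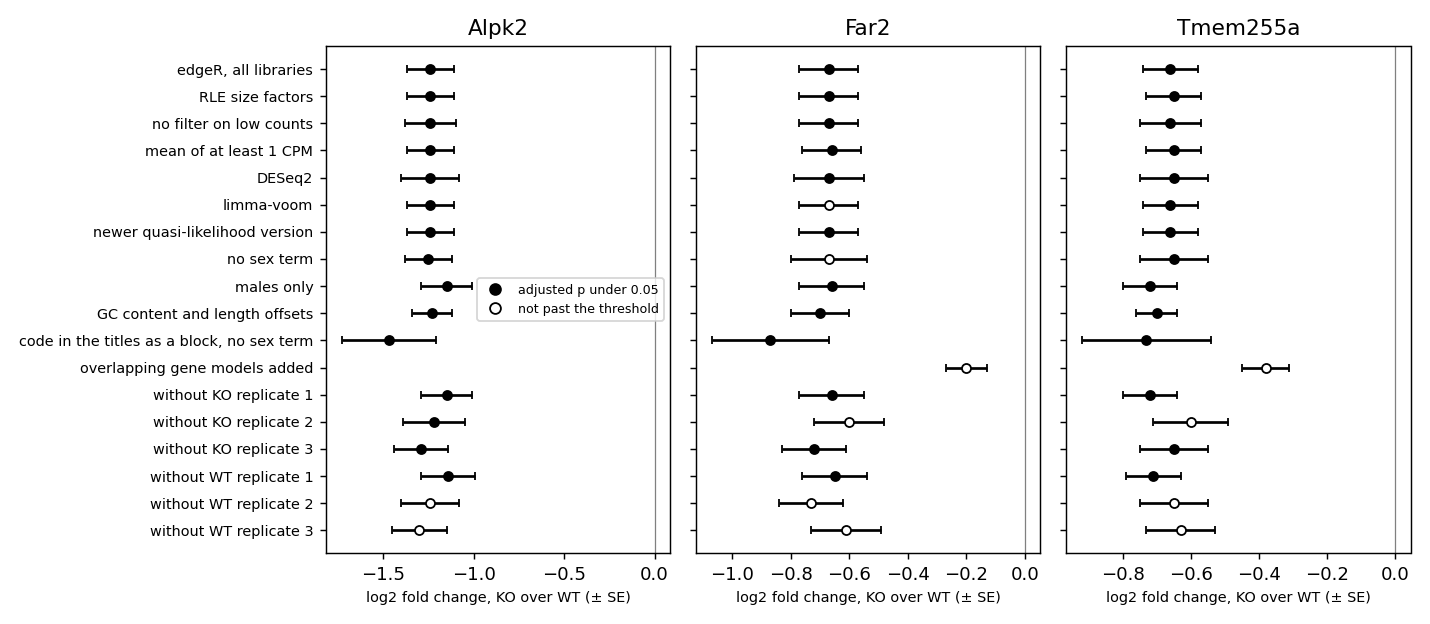
Log2 fold change of KO over WT with its SE (horizontal axis; the 3 panels have their own scales) for each gene under each way of fitting (rows); filled points have an adjusted p under 0.05. All points lie below 0, and the ones nearest to 0 are those with the counts of overlapping gene models added, -0.20 for Far2 and -0.38 for Tmem255a.

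Other gene models of the table share ground with Far2 and Tmem255a, and none shares any with Alpk2. The strand setting of the counting is not given in the sources used here, so reads from a gene and from an opposite partner cannot be told apart where exons coincide. Far2 meets Ergic2, which encodes a protein cycling between the endoplasmic reticulum and the Golgi and runs on the minus strand, over 3680 bases at their 3′ ends (Ergic2 spans 148179079 to 148212374 on chromosome 6). In GENCODE M21 the 2 genes have 837 exonic bases in common, 11.4% of the exonic bases of Far2 and 12.4% of those of Ergic2. Ergic2 had 2011, 1969 and 1780 counts in KO, against 2030, 2097 and 2080 in WT, and its scaled level was 70.4 ± 7.73 CPM in KO and 68.9 ± 1.30 CPM in WT (SD, n = 3 each). Its groups overlapped, and its log2 fold change was 0.03 (SE 0.08, edgeR adjusted p = 0.95). The antisense models Far2os2 (148006580 to 148047339), which meets Far2 over its first 81 bases, and Far2os1 (148060855 to 148067873), inside Far2, held 7 and 3 counts in all libraries together, equal to 0.116% and 0.0497% of the counts of Far2.

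Tmem255a meets Zbtb33, the gene of the methyl-CpG binding factor Kaiso, which runs on the opposite strand, over 474 bases (Zbtb33 spans 38189793 to 38197046 on chromosome X). All 474 bases are exonic in both genes in GENCODE M21, 10.6% of Tmem255a and 9.25% of Zbtb33. Zbtb33 had 1092, 1143 and 946 counts in KO, against 1064, 1224 and 1096 in WT. This was 38.8 ± 4.38 CPM in KO and 37.5 ± 2.52 CPM in WT (SD, n = 3 each), with a log2 fold change of 0.04 (SE 0.10, edgeR adjusted p = 0.922). The microRNA model Mir3110, inside Tmem255a, held 0 counts in every library.

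Adding the counts of all overlapping models to the gene gave -0.20 (SE 0.07, edgeR adjusted p = 0.414) for Far2 and -0.38 (SE 0.07, edgeR adjusted p = 0.0952) for Tmem255a. By construction these sums hold the counts of Ergic2 (198% of those of Far2) and Zbtb33 (61.2% of those of Tmem255a), whose own fold changes were near 0.

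The nearest tested genes on each side of each member were read in the same fit. Some are distant: the farthest lay 749 kb from Alpk2, 934 kb from Far2 and 1046 kb from Tmem255a. Of the 18 nearest tested models that do not overlap a member, 3 on each side of each, 0 passed the threshold in edgeR, DESeq2 or limma-voom, and 0 had an unadjusted p under 0.05 in edgeR, where 8.96% of all genes tested had one. Beside Alpk2 the ubiquitin ligase gene Nedd4l, 47.7 kb away, was at 0.08 (SE 0.07) and the paracaspase gene Malt1, 37.1 kb away, at 0.20 (SE 0.11). The transfer RNA synthetase gene Nars was at -0.01 (SE 0.06), Atp8b1 at 0.14 (SE 0.25), Zfp532 at -0.09 (SE 0.11) and the signal peptidase gene Sec11c at -0.06 (SE 0.08). The chromosome of Far2 also carries Tmem106b, but at 13069759 to 13089269, far from Far2 at 148047259 to 148182758. Beside Far2 the values were -0.14 (SE 0.08) for Ccdc91, 0.08 (SE 0.19) for Pthlh and 0.09 (SE 0.07) for Klhl42. On its other side they were -0.19 (SE 0.10) for Tmtc1, -0.43 (SE 0.30) for Rps4l and 0.15 (SE 0.07) for the importin gene Ipo8. Beside Tmem255a the lysosomal membrane protein gene Lamp2, 149 kb away, was at 0.13 (SE 0.09), the cullin gene Cul4b at -0.02 (SE 0.11) and Gm7598, a low model with 214 counts in all, at 0.44 (SE 0.22). Nkap, Ndufa1 and Rnf113a1 on its other side, 1046, 1005 and 1004 kb away, were at 0.10 (SE 0.11), -0.05 (SE 0.08) and 0.03 (SE 0.18). Over the 18 neighbours edgeR adjusted p-values ran from 0.593 to 0.975, and 8 of the 18 lay below 0, against 49.9% of all genes tested.

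**Figure D3:**
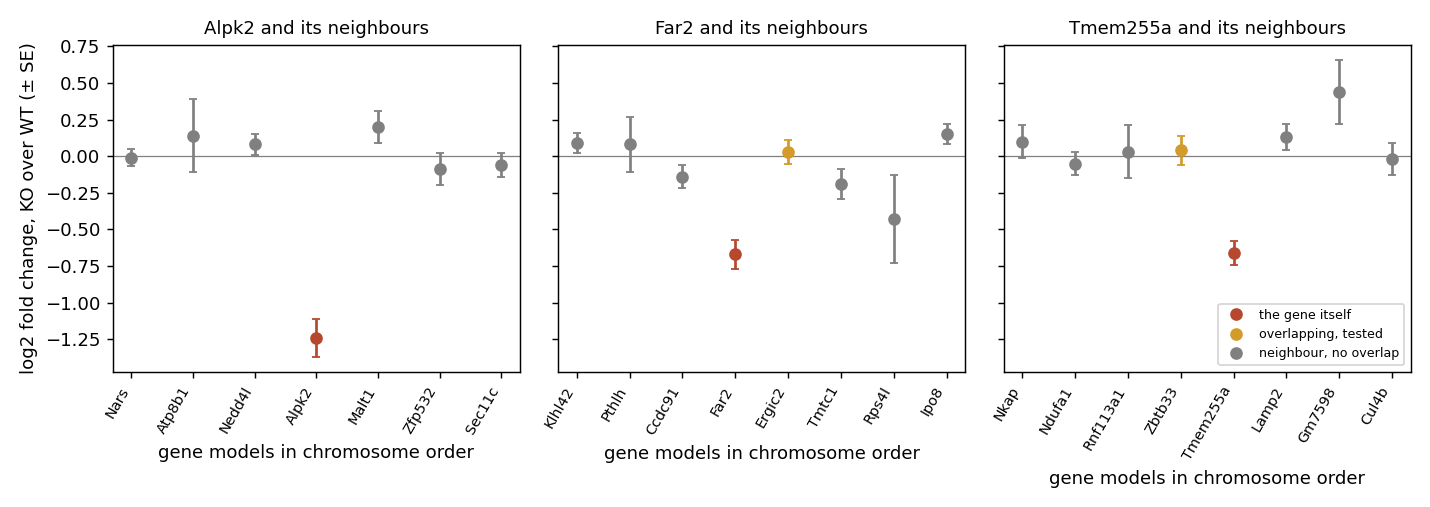
Log2 fold change of KO over WT with its SE for each gene (red), the tested gene models that overlap it (orange) and the nearest tested models on each side (grey), in chromosome order. Each member lies below the genes around it; the 18 neighbours run from -0.43 to 0.44, and Ergic2 and Zbtb33 are at 0.03 and 0.04.

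The family of each gene was set beside it. Of the 5 other alpha kinases 0 passed the threshold in edgeR, DESeq2 or limma-voom and 0 had an unadjusted p under 0.05 in edgeR (8.96% of all genes tested). Their median was 0.20 on the log2 scale, where that of all genes tested was 0.00. Eef2k, which phosphorylates the translation elongation factor eEF2, was at -0.03 (SE 0.07, edgeR adjusted p = 0.927). Trpm7, a channel with a kinase domain that conducts magnesium, was at 0.19 (SE 0.10, edgeR adjusted p = 0.64), and its relative Trpm6 at 0.29 (SE 0.24). Alpk1, a sensor of bacterial sugars in innate immunity, was at 0.37 (SE 0.16, edgeR adjusted p = 0.577), and Alpk3, a gene of striated muscle, at 0.20 (SE 0.31). Per length, Eef2k (12.1 ± 0.389 RPKM in KO and 12.3 ± 0.452 in WT) and Trpm7 (9.30 ± 1.09 in KO and 8.14 ± 0.50 in WT, SD, n = 3 each) had the highest levels of the family. In KO Alpk2, at 0.754 ± 0.0384 RPKM, and Alpk1, at 0.854 ± 0.118 RPKM, differed by less than the SD of Alpk1, whereas in WT Alpk2 was the higher of the pair (1.79 ± 0.218 RPKM, against 0.662 ± 0.056 RPKM for Alpk1).

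Far1, the other fatty acyl-CoA reductase gene and the one that supplies alcohols for plasmalogens, was at 88.4 ± 8.55 CPM in KO and 79.8 ± 4.43 CPM in WT (SD, n = 3 each), a log2 fold change of 0.14 (SE 0.09, edgeR adjusted p = 0.709). Per length Far1 was at 11 ± 1.06 RPKM in KO and 9.91 ± 0.549 RPKM in WT, above Far2 in both genotypes. A list of 36 names covering these enzymes, the ether lipid pathway, the fatty acid elongases and the acyl-CoA synthetases had 26 tested genes beside Far2. Of these, 0 passed the threshold in either direction in edgeR, DESeq2 or limma-voom, 0 had an unadjusted p under 0.05 in edgeR (8.96% of all genes tested), 14 lay below 0, and the median was -0.01. The first 2 enzymes of ether lipid synthesis, Gnpat (-0.02, SE 0.07) and Agps (0.08, SE 0.07), were both near 0. Apart from Far2 the largest differences were those of the phospholipase gene Pla2g6 (-0.21, SE 0.21), of Tmem189 (-0.18, SE 0.10), which encodes the desaturase that forms plasmalogens, and of the elongation reductase gene Tecr (-0.17, SE 0.11), with edgeR adjusted p-values of 0.821, 0.671 and 0.709. The wax synthase genes were at the edge of detection, with 0 counts for Awat1 and 34 for Awat2 in all 6 libraries together, and were not tested.

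Tmem255b, the only other member of its family in the table, was far lower than Tmem255a, at 0.284 ± 0.101 RPKM in KO and 0.373 ± 0.159 RPKM in WT (SD, n = 3 each). It had 70 counts in all, and its log2 fold change was -0.39 (SE 0.43, edgeR adjusted p = 0.837).

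Markers of the cell types that a cerebellar piece can hold were read in the same fit. Of 37 Purkinje cell markers 36 lay below 0 and 9 fell past the threshold in edgeR, among them Ebf2 (-1.37, SE 0.15), Itpr1 (-0.65, SE 0.07) and Car8 (-0.62, SE 0.07), and 0 rose, where 49.9% of all genes tested lay below 0 and 0.148% fell. DESeq2 called 19 of the markers and limma-voom 7, all lower, and 33 were lower at an unadjusted p under 0.05 in edgeR, against 4.25% of all genes tested. The marker lists were chosen with earlier results of these data known, so these counts are a description. The median was -0.44, and the one marker above 0 was Etv1 (0.10, SE 0.06), which granule cells also express. The fold change of Alpk2 lay below those of all these markers except Ebf2. Those of Far2 (-0.67, SE 0.10) and Tmem255a (-0.66, SE 0.08) were close to those of Arhgef33 (-0.67, SE 0.07), Itpr1, Rgs8 (-0.65, SE 0.08) and Car8. These markers lay within the SE of both genes, so the order among them is not resolved. In bulk tissue, fewer cells of a type and less RNA per cell cannot be told apart, and in which cells the 3 genes are expressed was not measured. The summed level of the Purkinje list was 14531, 13095 and 14485 CPM in KO, against 19435, 17880 and 18718 CPM in WT, which is 75.2% of the WT mean in KO. The part of this fall in the fall of the 3 genes was not tested.

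Set against that sum in the same library, the 3 genes gave unequal values, which reuse the levels that chose them and are a description. Alpk2 had 0.401, 0.427 and 0.427 CPM per 1000 CPM of the Purkinje list in KO, against 0.813, 0.754 and 0.668 in WT, without overlap, and its KO mean was 56.2% of the WT mean. Far2 had ratios of 2.06, 1.77 and 1.89 in KO, against 2.50, 2.06 and 2.28 in WT. Here KO replicate 1 and WT replicate 2 were the same as rounded. Tmem255a had 3.81, 3.25 and 3.19 in KO, against 4.17, 4.01 and 3.93 in WT. The KO means of the ratio were 83.7% of the WT mean for Far2 and 84.7% for Tmem255a. Itpr1, Aldoc, Car8 and Rgs8 make up 51.2% of the sum. Aldoc, which astrocytes also express, was at -0.07 (SE 0.08), and its KO mean was 95.4% of the WT mean. The KO means of Itpr1, Rgs8 and Car8 were 63.8%, 63.8% and 65.1% of WT, beside 62.9% for Far2 and 63.8% for Tmem255a. The ratios to the sum therefore depend on which markers it holds.

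**Figure D4:**
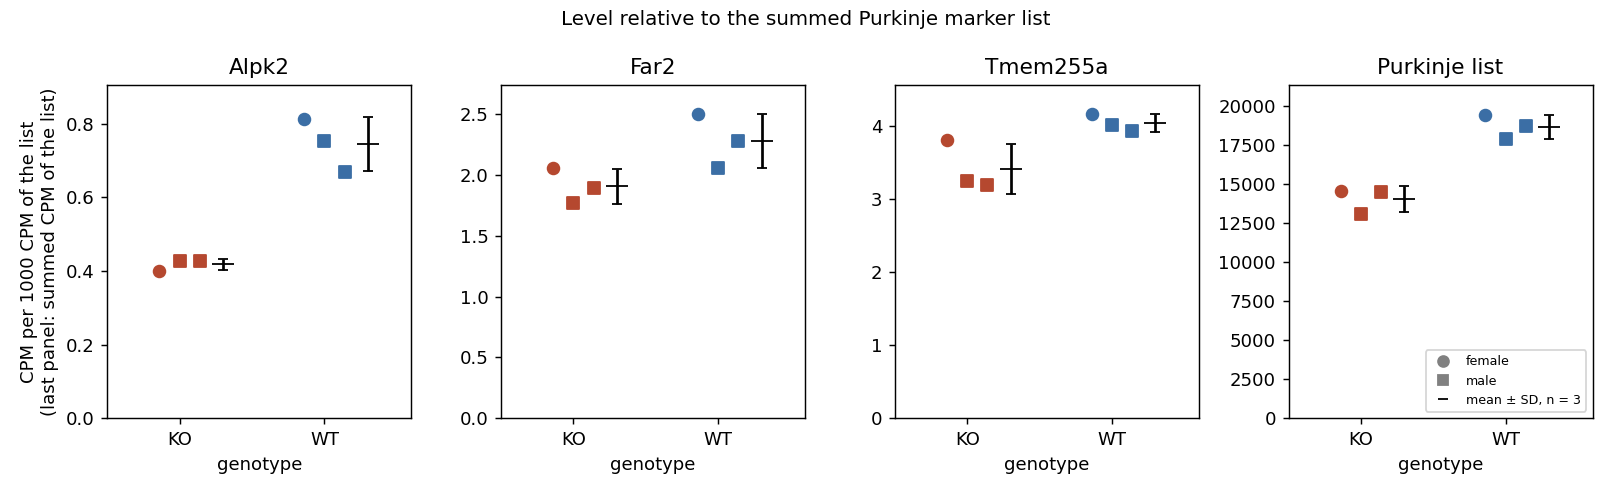
CPM of each gene per 1000 CPM of the summed Purkinje marker list in every KO and WT library (3 left panels), and the summed CPM of the list (right panel). Circles are females, squares males, and the bars the mean ± SD of 3 mice. For Alpk2 the ratio in KO, 0.401 to 0.427, stays below the WT range of 0.668 to 0.813. For Far2 the highest KO ratio and the lowest WT ratio both round to 2.06.

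Of the other lists, microglia markers had 6 of 21 tested models higher in KO and 0 lower (median 0.79), with a summed level of 502 to 600 CPM in KO against 307 to 380 CPM in WT. Over all genes tested 0.136% were higher. DESeq2 called 15 of the 21 models and limma-voom 5, all higher, and 17 were higher at an unadjusted p under 0.05 in edgeR, against 4.71% of all genes tested. Among the 6 were Lyz2 (1.53, SE 0.13), Clec7a (1.85, SE 0.17) and Fcrls (1.46, SE 0.18). Clec7a has 2 models in the table, and this value is that of the model labelled a polymorphic pseudogene. Its protein-coding model was at 1.75 (SE 0.28, edgeR adjusted p = 0.0565). The rise was not shared by the whole list, of which 2 models lay below 0. In the Bergmann glia and astrocyte list 1 of 17 rose past the threshold in edgeR, Gfap (0.90, SE 0.10), and 0 fell past it (median -0.05). At an unadjusted p under 0.05 in edgeR 4 were on the higher and 3 on the lower side. DESeq2 and limma-voom called 2 genes each in either direction, in DESeq2 Gfap and Tnc. Tnc, just outside the edgeR threshold, was at -1.36 (SE 0.20, edgeR adjusted p = 0.0504), and its KO mean was 39.1% of the WT mean. Of the granule cell (median 0.03, 20 tested), molecular layer interneuron (-0.01, 12), Golgi cell, brush cell and nuclei (0.04, 11), oligodendrocyte (-0.07, 14), precursor (-0.04, 8) and vascular or meningeal (-0.04, 18) markers, 0 passed in either direction in edgeR or limma-voom. DESeq2 called 2 of these, both of the nuclei list and in opposite directions: Nefh (-0.42, SE 0.07 in edgeR) and Spp1 (0.77, SE 0.14 in edgeR). At an unadjusted p under 0.05 in edgeR granule cell markers had 4 members, all higher, and the nuclei list 1 higher and 3 lower. Oligodendrocytes had 0, and each of the other lists 1 lower. All genes tested had 4.71% on the higher and 4.25% on the lower side. Choroid plexus markers had a median of 0.52 with 0 of 12 past the threshold in edgeR, DESeq2 or limma-voom and 0 at an unadjusted p under 0.05 in edgeR, and their summed level varied widely within each genotype, from 2315 to 7306 CPM in KO and 294 to 6824 CPM in WT. Forebrain and midbrain markers summed to at most 26.9 CPM and brainstem and spinal markers to at most 1.71 CPM in any library. Alpk2, Far2 and Tmem255a are in none of these lists.

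**Figure D5:**
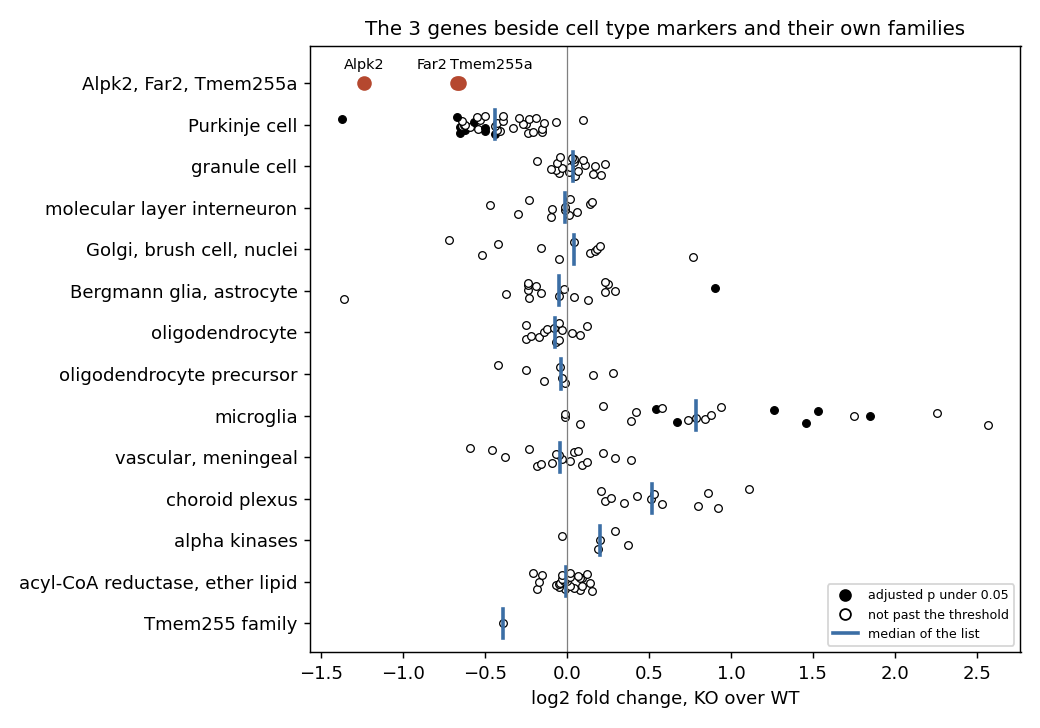
Log2 fold change of KO over WT for the 3 genes (red, top) and for the tested members of each list, with the 3 genes left out of their own families. Black points have an edgeR adjusted p under 0.05, white points do not, and blue bars are medians. Far2 at -0.67 and Tmem255a at -0.66 lie beside Purkinje markers such as Itpr1 and Rgs8, both at -0.65 (median of the list -0.44). Alpk2 at -1.24 lies beyond all of that list but Ebf2.

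The genes most like each member over the 6 libraries were named by the root mean square distance between log2 CPM profiles, each centred on its own mean, among named coding genes that averaged 1 CPM or more (12953 for Alpk2 and 12952 for the other two). The distance includes the genotype difference that chose the members, so near genes are by construction lower in KO by a like amount. Nearest to Alpk2 were Sv2c, a synaptic vesicle protein gene (distance 0.170), the neuropeptide gene Cck (0.178) and the transcription factor gene Ebf2 (0.193). Cck had 7.36, 6.63 and 8.50 CPM in KO, against 22.4, 13.0 and 15.3 CPM in WT, a log2 fold change of -1.14 (SE 0.18, edgeR adjusted p = 0.0507). Nearest to Far2 were Kcnip1 (0.073), which encodes a protein that binds potassium channels, Car8 (0.074), which encodes a partner of the Purkinje inositol trisphosphate receptor, and the guidance factor gene Sema3a (0.075). Nearest to Tmem255a were Car8 (0.026), Sema3a (0.045) and the KIT ligand gene Kitl (0.064). The profile of Car8, at 1401, 1102 and 1223 CPM in KO and 2038, 1806 and 1878 CPM in WT, had the order of the libraries seen in Tmem255a, with replicate 1 highest and replicate 2 lowest in each genotype. That order was not particular to this pair: Far2, Kcnip1 and Sema3a had it too, and Kitl had it in KO only. Far2 and Tmem255a were 0.079 apart, with 3 genes nearer to Far2 and 5 nearer to Tmem255a, whereas Alpk2 was 0.310 from Far2 and 0.314 from Tmem255a.

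Sex gave a contrast that had no part in the choice of the genes. In KO the female was at 98.8% of the mean of the males for Alpk2, 118% for Far2 and 125% for Tmem255a, and in WT at 122%, 122% and 112%. The log2 fold change of females over males, with genotype in the model, was 0.15 (SE 0.13) for Alpk2, 0.27 (SE 0.10) for Far2 and 0.24 (SE 0.08) for the X-linked Tmem255a. In edgeR their adjusted p-values were 0.787, 0.72 and 0.72, so none passed over all genes tested, where 6 genes, or 0.0354%, did. The unadjusted p-values were 0.297, 0.0335 and 0.0175, and 6.68% of all genes and 8.14% of the 614 X-linked genes tested had one under 0.05. Each genotype has 1 female, and the 2 females are also the libraries that stood apart on the principal components, so sex and library cannot be told apart here. The summed choroid plexus markers were at 294 CPM in the WT female, against 6824 and 4571 CPM in the WT males. In KO they were at 2723 CPM in the female, against 7306 and 2315 CPM in the males. The part of such differences in the sex values was not tested. Between genotypes within a sex, the KO female was at 36.9% of the WT female for Alpk2, 61.7% for Far2 and 68.4% for Tmem255a, and the KO males at 45.4%, 63.6% and 61.2% of the WT males. In males alone the log2 fold changes of KO over WT were -1.15 (SE 0.14), -0.66 (SE 0.11) and -0.72 (SE 0.08). Whether the difference between genotypes depends on sex was not tested.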

How the data were processed

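The authors deposited unnormalized counts of reads for each gene model and mouse in 1 table, which also gives coordinates, length, symbol and biotype per the file headers. The submitters' processing notes name the aligner STAR and the build mm10. Which program counted the reads, on which strand and over which annotation release is not given in the sources used here. Total RNA was purified on columns, per the labels' protocols. Within a genotype every pair of libraries differed beyond sampling noise (chi-square of 6.96 to 28.8 per degree of freedom), and replicate numbers follow the order of deposit. A code in the sample titles, whose meaning is not given, is shared by 2 KO libraries and 1 WT library, and the other 3 libraries have a code each.

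Counts were fitted in R 4.3.3 with edgeR 4.0.16 (filterByExpr on genotype with a minimum count of 10 and total of 15, TMM, estimateDisp, robust glmQLFit in its legacy version, terms for sex and genotype, 3 residual degrees of freedom). Two-sided quasi-likelihood F tests had their p-values adjusted over the 16934 tested genes (Benjamini-Hochberg, threshold 0.05). The SE of a log2 fold change is its size divided by the square root of F. Length-normalised levels use the length column of the authors' table. DESeq2 1.42.0 and limma 3.58.1 were alternatives. The edgeR, DESeq2 and limma-voom tests were run on simulated counts with known changes. Exons came from GENCODE M21, whose build is that of mm10, and GC content from its transcripts (99% of tested genes had a value).

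The members, the lists and the tests were chosen with earlier results of these data known. Named genes were the members, the models overlapping them, 3 tested neighbours on each side, their families, up to 3 called markers per list and the 3 nearest profiles per member. Etv1, Aldoc, Arhgef33, Rgs8, Nefh, Spp1, Tnc, Kcnma1, Icmt and Dner were named after their values were seen, and so were Gnpat, Agps, Awat1 and Awat2. Whether the mice were littermates is unknown. The edgeR p-values of the main fit set each difference against the spread between these animals, moderated across genes (median prior degrees of freedom 5.41, beside 3 residual).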

Additional observations from a re-analysis of the deposited data

How the results depend on the processing

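The direction of Alpk2, Far2 and Tmem255a in KO held in all 16, 17 and 17 alternatives, and they passed the threshold in 14, 11 and 13. Far2 missed it in limma-voom (-0.67, adjusted p = 0.0524), without the sex term (-0.67, adjusted p = 0.0624) and with overlapping models added (-0.20), as did Tmem255a with overlapping models added (-0.38). Leaving out each library gave -1.30 to -1.14, -0.73 to -0.60 and -0.72 to -0.60. The count of 48 changed genes, 25 of them lower, was 75 and 44 with RLE size factors, 199 and 121 with no filter, 76 and 45 where genes had to average 1 CPM, 232 and 141 in DESeq2, 111 and 71 in males only and 293 and 183 with GC content and length offsets. At a threshold of 0.10, 109 genes changed. Leaving out each library gave 1 to 156 changed genes and 1 to 89 lower ones. The cause of these shifts was not tested. Between the scalings the median of all genes shifted by 0.00128 (log2). Of the 3 differences between females and males, 0 passed under any of their 13 alternatives each. That of Alpk2 ran from -0.02 (without WT replicate 1) to 0.25, that of Far2 from 0.21 to 0.31 and that of Tmem255a from 0.12 to 0.32 over the fits with a library left out or another setting. No paired analysis was possible because the replicate numbers follow the order of deposit and pair no mice. With the code in the titles as a block and no sex term, 327 genes changed and 146 were lower. This alternative was chosen after seeing the data. It leaves 1 residual degree of freedom and sets KO replicates 1 and 2 against WT replicate 1. The log2 fold changes were -1.47 (SE 0.26) for Alpk2, -0.87 (SE 0.20) for Far2 and -0.73 (SE 0.19) for Tmem255a. With 1 WT library compared, the numbers of changed genes in this fit say little about the spread between mice. The same holds for the passes of the 3 genes in it, which are included above. Depth limits Alpk2, at 148 to 171 counts in KO, more than the other two.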
